A study of Mus musculus with 6 samples.

Results

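Branched-chain amino acid breakdown was examined in the embryonic mouse retina through 10 genes: the transaminases Bcat1 and Bcat2, the branched-chain ketoacid dehydrogenase (BCKDH) subunits Bckdha, Bckdhb and Dbt, the BCKDH kinase Bckdk, the downstream enzymes Ivd, Mccc1 and Acad8, and Thyn1, which lies head to head with Acad8. The 10 genes were selected by name, and the grouping was chosen from the measured difference between control and conditional knockout (CKO) retinae together with pathway membership. Their differences between the genotypes are therefore a description and not a test. All 10 had a row in the count table of 23441 genes, and all 10 were among the 14609 genes that passed the filter on low counts. Thyn1 encodes a nuclear protein and no enzyme of the pathway, so that 9 of the genes carry the pathway and Thyn1 is there for its position.

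Retinae were taken at embryonic day 14.5 from mice on a mixed background (FVB, SJL/B6, 129/Sv and C57/B6). The 3 control libraries came from Ronin flox/flox mice. The 3 CKO libraries came from mice with the genotype Chx10-Cre::GFP +/tg; Ronin flox/flox. Every animal thus carried floxed alleles of Ronin (gene symbol Thap11), and the CKO mice also carried that transgene, which drives Cre fused to GFP in retinal progenitors. The controls lacked the transgene, so its effect and that of the deletion cannot be told apart. The labels do not say whether replicates came from separate animals or pools, so errors cover the spread between these libraries.

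Leucine, isoleucine and valine share the opening steps of their breakdown. A transaminase moves the amino group to alpha-ketoglutarate, which yields glutamate and a branched-chain ketoacid, and the mitochondrial BCKDH complex then commits the ketoacid to oxidation. The kinase encoded by Bckdk phosphorylates the E1 alpha subunit (Bckdha) and switches the complex off, and the phosphatase encoded by Ppm1k reverses this. In neural tissue these amino acids are known as a source of nitrogen for glutamate. Ronin is a THAP zinc finger protein that binds promoters together with the cofactor HCF-1, and a DNA motif has been described at such promoters and for the factor ZNF143.

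The promoters of the 3 genes with the largest differences are shown because all 3 hold this motif and no other promoter window of the 10 genes does. The motif was searched as ACTACA, any 2 bases, then TCCCAG, on both strands, in windows of 300 bases (250 before to 50 after a start site) from RefSeq on GRCm38.p6. The motif was chosen with the expression results known. The counts were made on mm9, so the coordinates here are those of the sequence table alone. Capitals mark the matches, which read in reverse complement where they lie on the opposite strand. The Bckdk window is chr7:127903823-127904122 on the plus strand. The Thyn1 window is chr9:26999427-26999726 on the plus strand, and it shares 227 bases with the Acad8 window, chr9:26999500-26999799 on the minus strand.
Bckdk: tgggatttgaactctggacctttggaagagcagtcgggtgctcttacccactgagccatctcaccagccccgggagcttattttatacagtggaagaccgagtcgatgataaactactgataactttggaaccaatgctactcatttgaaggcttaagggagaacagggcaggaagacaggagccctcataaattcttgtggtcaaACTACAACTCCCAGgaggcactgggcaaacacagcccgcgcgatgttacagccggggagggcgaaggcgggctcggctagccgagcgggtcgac
Thyn1: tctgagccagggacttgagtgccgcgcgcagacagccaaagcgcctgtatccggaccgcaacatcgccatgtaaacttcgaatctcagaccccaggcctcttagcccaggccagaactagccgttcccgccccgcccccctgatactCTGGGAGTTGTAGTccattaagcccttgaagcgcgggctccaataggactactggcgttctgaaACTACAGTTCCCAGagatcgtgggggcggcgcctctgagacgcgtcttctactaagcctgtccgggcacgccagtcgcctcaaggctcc

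The Bckdk window held 1 match, from base -44 to base -31 relative to the start site. The Acad8 and Thyn1 windows shared the same 2 matches, which face in opposite directions in the 128 bases between the start sites of these windows. From Thyn1 they lay at -39 to -26 on its own strand and at -103 to -90 on the other. From Acad8 they lay at -38 to -25 on its own strand and at -102 to -89 on the other. Each of the 3 genes thus had a match on its own strand that began between 38 and 44 bases before the start site. Of 32851 windows in the table, 339 (1.03%) held a match and 23 (0.07%) held at least 2.

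Windows were found for 9 of the 10 genes, 12 windows in all, with none for Dbt. The 9 windows of Bcat1, Bcat2, Bckdha, Bckdhb, Ivd and Mccc1 held no match. Among 45 further genes of the pathway and its relatives with a window, 1 did: Etfdh, which encodes the oxidoreductase that passes electrons from acyl-CoA dehydrogenases to ubiquinone. Its match, from -177 to -164 on its own strand, had the same 14 bases as those of Bckdk and Acad8. The matches on the strand of each gene are set side by side, with 8 flanking bases in lower case on either side, to show how far the sequences match around and within the motif.
Bckdk: gtggtcaaACTACAACTCCCAGgaggcact
Acad8: cttaatggACTACAACTCCCAGagtatcag
Thyn1: gttctgaaACTACAGTTCCCAGagatcgtg
Etfdh: agctaaacACTACAACTCCCAGaatgccta

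**Figure D1:**
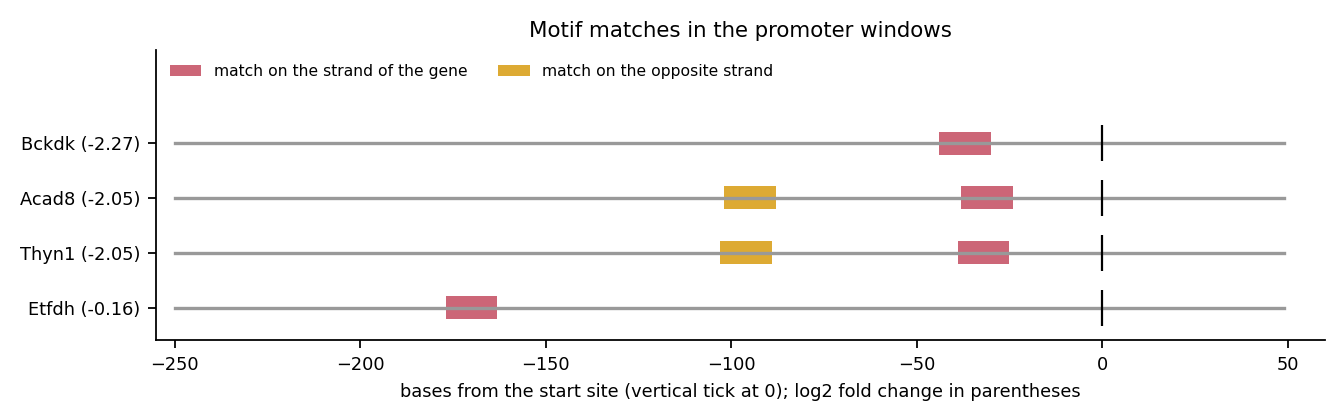
Motif matches in the promoter windows of Bckdk, Acad8, Thyn1 and Etfdh, by bases from the start site (horizontal axis, vertical tick at 0), with the log2 fold change of each gene, CKO minus control, in parentheses. Bckdk, Acad8 and Thyn1 have a match that starts 38 to 44 bases before the start site, and the match of Etfdh starts at -177. Match positions in other genes were not compared.

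The libraries held between 23721052 and 28504391 counted reads. Thap11 itself had 1739, 1880 and 1880 reads in the controls, against 323, 292 and 156 reads in the CKO, so the label of every library fitted its Thap11 count. Retinal progenitor markers (11 genes, among them Rax) summed to between 8901 and 9512 CPM in the controls and between 8558 and 9157 CPM in the CKO, where CPM is the count per 1000000 reads of the library after TMM scaling. Control replicate 2 and CKO replicate 1 stood apart: the former correlated least with the other controls (Pearson r = 0.954 and 0.973 of log2 CPM over the genes tested), and the latter held the most lens RNA. The 19 lens markers summed to between 13.0 and 20.7 CPM in the controls and to 10430, 66.0 and 765 CPM in CKO replicates 1 to 3. The 10 endothelial markers summed to between 292 and 350 CPM in the controls and between 254 and 276 CPM in the CKO. Kdr made up most of that sum, with a log2 fold change of -0.25 ± 0.13, whereas the median of the 10 was -0.52, 9 were negative, and Flt1 (-1.06 ± 0.22) and Pecam1 (-0.71 ± 0.29) were among 4 whose groups did not overlap. The 10 skeletal muscle markers, of a tissue rich in this pathway, were low in sum in all 6 libraries. They summed to 4.12, 9.34 and 3.08 CPM in control replicates 1 to 3 and 4.26, 2.88 and 2.45 CPM in CKO replicates 1 to 3. Control replicate 2 was thus the highest. All 4 tested markers were negative (median -0.78), with Myh3 at -1.18 ± 0.48 (edgeR adjusted p = 0.709) and without overlap. Myod1 and Myf5 had no more than 1 read in any library.

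Bckdk, the brake on the pathway, was the lowest of the 10 genes in the CKO relative to control. It measured 74.3, 62.2 and 61.3 CPM in control replicates 1 to 3, against 15.7, 14.6 and 10.7 CPM in the CKO replicates of those numbers. Every CKO library lay far below every control, with CKO replicate 3 the lowest and control replicate 1 the highest. The means were 65.9 ± 7.24 and 13.7 ± 2.62 CPM (SD, n = 3 each), which is 4.81-fold lower, with a log2 fold change of -2.27 ± 0.19 (SE). Thap11 fell 7.78-fold (log2 fold change -2.96 ± 0.24, Benjamini-Hochberg adjusted p = 0.00425 by the quasi-likelihood test of edgeR), to 12.9% of its control level, and Bckdk stood at 20.8% of its own. In whole tissue, fewer cells with the transcript and less transcript per cell cannot be told apart.

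Acad8 encodes isobutyryl-CoA dehydrogenase, which acts in the valine branch. It measured 38.3, 50.6 and 34.7 CPM in control retinae against 9.42, 11.4 and 9.08 CPM in CKO retinae, with no overlap. Control replicate 2 was the highest of the controls. The means were 41.2 ± 8.31 and 9.97 ± 1.27 CPM, a log2 fold change of -2.05 ± 0.20, or 4.13-fold lower, and -1.86 without control replicate 2.

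Thyn1, whose start lies on the other side of the shared window, measured 17.3, 12.1 and 14.6 CPM in control retinae against 4.12, 3.32 and 3.15 CPM in CKO retinae. Here control replicate 2 was the lowest of the controls, the reverse of its place for Acad8. The means were 14.7 ± 2.62 and 3.53 ± 0.52 CPM, a log2 fold change of -2.05 ± 0.21, or 4.15-fold lower. The pair thus kept 24.2% (Acad8) and 24.1% (Thyn1) of the control level. The number of Acad8 reads per Thyn1 read, which does not depend on scaling, was 2.21, 4.18 and 2.38 in the controls and 2.29, 3.44 and 2.88 in the CKO, with overlapping groups. Thyn1 overlaps Vps26b in the RefSeq annotation of GRCm38.p6. The sources used here do not say whether counting used strand, so reads in the overlap cannot be assigned. Vps26b itself stood at 159 ± 5.83 and 159 ± 2.85 CPM.

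Bckdk, Acad8 and Thyn1 were the 3 of the 10 genes called lower at an adjusted p under 0.05 in the fit over all genes, in which 0.705% of genes were called lower, 0.192% higher and 0.897% in either direction. They were also the 3 of the 10 in which all CKO libraries lay below all controls, as did 6.91% of all genes tested. Since the genes were grouped with this difference in view, nothing is read from these counts. By size, Bckdk ranked 22, Thyn1 36 and Acad8 38 among the 103 genes called lower. The calls of Acad8 and Thyn1 were lost without CKO replicate 3 and that of Thyn1 also without control replicate 3, settings in which calls over all genes dropped from 131 to 16 and 33. The log2 fold changes moved little when any 1 library was left out, from -2.38 to -2.12 for Bckdk, from -2.15 to -1.86 for Acad8 and from -2.18 to -1.92 for Thyn1. Without CKO replicate 1, the library with the most lens RNA, they were -2.38, -2.0 and -2.18. The part of the lower endothelial markers in these differences was not tested.

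**Figure D2:**
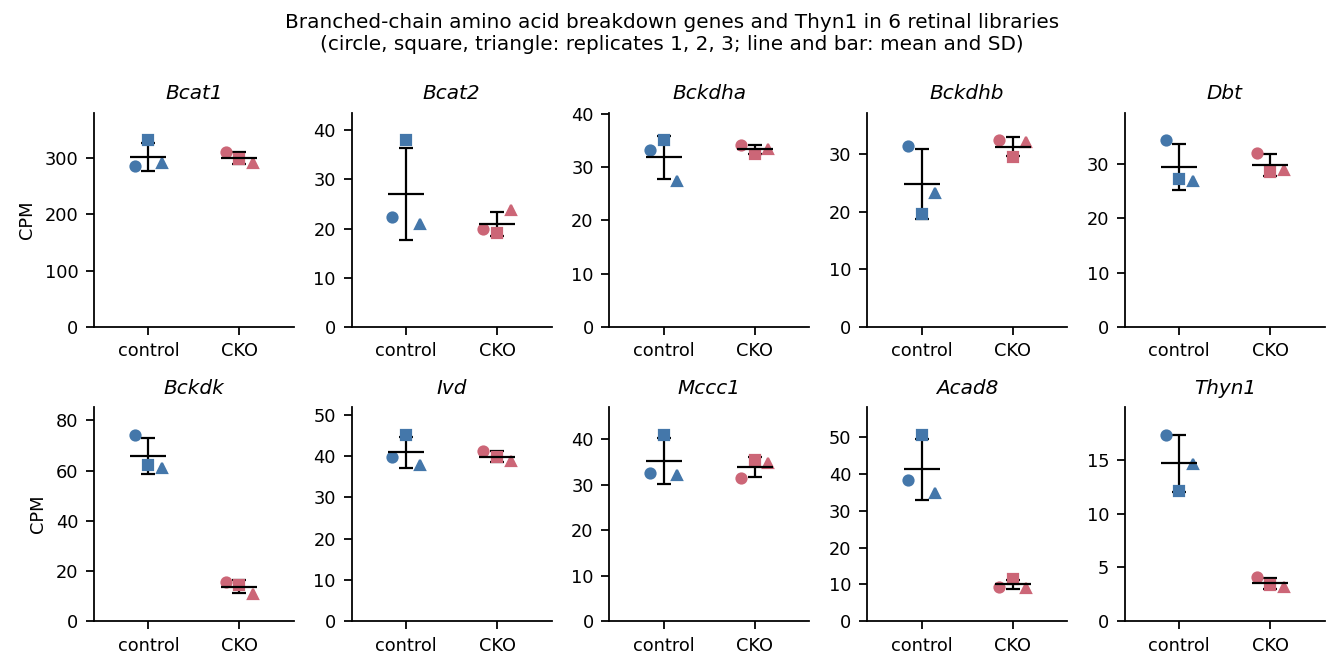
CPM (vertical axes, each starting at 0) of the 10 genes in the 3 control and 3 CKO libraries, with mean and SD. In the panels of Bckdk, Acad8 and Thyn1 the CKO points lie apart from and below the controls, and in the other 7 panels the groups overlap.

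The transaminases start the pathway. Bcat1 was near its control level, and Bcat2 stood at 77.5% of its own with overlapping groups. Bcat1, the cytosolic form known from neural tissue, measured 286, 331 and 291 CPM in control retinae against 311, 299 and 291 CPM in CKO retinae. The groups overlapped, with a log2 fold change of -0.01 ± 0.13, whose sign turned with other scalings and without control replicate 2. Bcat2, the mitochondrial form, measured 22.3, 37.9 and 20.9 CPM in control retinae against 19.9, 19.1 and 23.8 CPM in CKO retinae. Its difference of -0.37 ± 0.25 came with control replicate 2 as the single high library, and without that library the value was -0.03.

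The BCKDH complex, the target of the kinase, had no subunit whose control and CKO libraries separated. Bckdha, the E1 alpha subunit that Bckdk phosphorylates, measured 33.2, 35.0 and 27.3 CPM in control retinae against 34.3, 32.5 and 33.4 CPM in CKO retinae (log2 fold change 0.07 ± 0.15). Its CKO libraries all lay inside the range of the controls. Bckdhb, the E1 beta subunit, measured 31.5, 19.7 and 23.3 CPM in control retinae against 32.4, 29.5 and 32.1 CPM in CKO retinae (0.34 ± 0.19). The CKO libraries were at the upper end of the controls, with control replicate 1 among them, and the difference was 0.21 without control replicate 2 and 0.54 without control replicate 1. Dbt, the E2 transacylase that carries the lipoyl group, measured 34.3, 27.2 and 26.8 CPM in control retinae against 32.1, 28.5 and 28.9 CPM in CKO retinae (0.02 ± 0.15), again with overlapping groups.

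The leucine branch beyond BCKDH was represented by Ivd, isovaleryl-CoA dehydrogenase, and Mccc1, the biotin-carrying subunit of methylcrotonyl-CoA carboxylase. Ivd measured 39.7, 45.2 and 37.9 CPM in control retinae against 41.2, 39.8 and 38.7 CPM in CKO retinae. Mccc1 measured 32.5, 41.0 and 32.1 CPM in control retinae against 31.5, 35.5 and 34.8 CPM in CKO retinae. Both overlapped between the groups, with log2 fold changes of -0.04 ± 0.13 and -0.05 ± 0.15, and the sign of both turned with library sizes alone and without control replicate 2. Control replicate 2 was the highest library for both. Ivd and Acad8 are acyl-CoA dehydrogenases of neighbouring branches, and the number of Acad8 reads per Ivd read was 0.964, 1.12 and 0.916 in the controls against 0.229, 0.287 and 0.234 in the CKO.

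Reads of the kinase relative to those of its target complex give the same contrast within each library and need no scaling. For each Bckdha read the controls had 2.24, 1.78 and 2.24 Bckdk reads, and the CKO libraries had 0.458, 0.450 and 0.321. Per Dbt read the values were 2.16, 2.29 and 2.29 in the controls and 0.489, 0.514 and 0.371 in the CKO. In every control the kinase thus gave more reads than either subunit and in every CKO library fewer, a statement on reads and not on molecules, since the transcripts differ in length. Among the subunits themselves, the number of Bckdha reads per Bckdhb read was 1.05, 1.78 and 1.17 in the controls and 1.06, 1.10 and 1.04 in the CKO.

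Levels of the 10 genes were compared with each other as CPM per kilobase of merged exons, with lengths from GENCODE M21 on GRCm38. In the controls Bcat1 was the most abundant at 36.2 ± 2.98 CPM per kilobase, apart from all others by more than the SDs. The other 9 formed a continuous series from Bckdk at 18.9 ± 2.07 over Bckdha (16.8 ± 2.12), Bckdhb (15.4 ± 3.75), Mccc1 (14.3 ± 2.04), Acad8 (14.3 ± 2.88), Thyn1 (13.1 ± 2.34), Ivd (11.2 ± 1.03) and Bcat2 (10.9 ± 3.79) to Dbt at 8.92 ± 1.28 CPM per kilobase, in which neighbours did not differ beyond their SDs. In the CKO, Bcat1 still led at 35.9 ± 1.23 CPM per kilobase, and Bckdk (3.92 ± 0.75), Acad8 (3.45 ± 0.44) and Thyn1 (3.16 ± 0.46) lay together at the bottom, below Dbt at 9.03 ± 0.59 and Bcat2 at 8.42 ± 1.01. Bckdk thus went from the second place of the series to the eighth. As a share of the mean, the SD was smaller among the CKO libraries than among the controls for 9 of the 10 genes. Bckdk went the other way, at 11.0% in the controls and 19.1% in the CKO, the widest CKO spread of the 10.

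The remaining enzymes of the pathway were followed as a list of 16 genes (among them Mccc2 and Auh of the leucine branch, Acadsb, Hsd17b10 and Acat1 of isoleucine, Hibch, Hibadh and Aldh6a1 of valine, Echs1, the propionyl-CoA genes Pcca, Pccb, Mcee and Mut, the E3 subunit gene Dld, and Ppm1k). None of the 16 was called in edgeR's test, which called 0.897% of all genes, and 0 had an unadjusted p under 0.05. Their log2 fold changes reached up to 0.27 (Acat1) with a median of 0.04, against -0.03 over all genes tested. Dld stood at 148 ± 20.7 and 140 ± 3.78 CPM. The phosphatase gene Ppm1k, named for its role opposite Bckdk, measured 22.2, 22.6 and 28.7 CPM in control retinae against 20.7, 24.6 and 22.3 CPM in CKO retinae (-0.12 ± 0.16). The groups overlapped in all 16.

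Related enzymes gave no call either, near the share of 0.897% over all genes. Of the kinases and phosphatases that act on mitochondrial ketoacid dehydrogenases, the pyruvate dehydrogenase kinase gene Pdk1 measured 84.9, 85.4 and 105 CPM in control retinae against 70.1, 66.3 and 71.2 CPM in CKO retinae (log2 fold change -0.40 ± 0.14, edgeR adjusted p = 0.522), the 1 of 6 tested members with an unadjusted p under 0.05. Its CKO libraries lay below the controls, by far less than those of Bckdk, and no test of the difference between the genes was made. Among 10 other acyl-CoA dehydrogenases, relatives of Acad8 and Ivd, 0 were called and 0 had an unadjusted p under 0.05, with a median of 0.07. Acad9 stood at 64.5 ± 1.56 and 60.2 ± 1.13 CPM, with all CKO libraries below all controls, and 1 other of the 10 separated upward. The lowest value of the list was that of Acads, -0.59 ± 0.32, or -0.09 without control replicate 2. Acadvl, a fatty acid enzyme named after its values were seen, measured 41.8, 62.2 and 38.1 CPM in control retinae against 61.1, 60.3 and 64.8 CPM in CKO retinae (0.39 ± 0.20), and without control replicate 2 it was called higher at 0.65. Of 8 subunits of the sister complexes and the shared Dld, 0 were called and 0 had an unadjusted p under 0.05 (median 0.03), with Ogdh at 191 ± 18.8 and 185 ± 5.33 CPM.

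Cofactor and electron transfer genes (lipoylation, biotin attachment and the electron transfer flavoprotein, 8 genes) also had 0 calls and 0 with an unadjusted p under 0.05, and a median of 0.10. Etfdh, whose motif match begins at -177, measured 55.3, 35.3 and 47.6 CPM in control retinae against 43.2, 41.0 and 39.2 CPM in CKO retinae. Whether the place of a match goes with the difference between genotypes was not tested. The groups of Etfdh overlapped, and its log2 fold change was -0.16 ± 0.18, or -0.31 without control replicate 2. Etfb, a subunit of the electron transfer flavoprotein, measured 53.3, 96.4 and 33.8 CPM in control retinae against 43.5, 35.7 and 40.4 CPM in CKO retinae, where control replicate 2 again stood out.

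Transporters of branched-chain amino acids were the list with the highest median, 0.365 over 6 genes, with 0 calls and 2 unadjusted p under 0.05 (Slc3a2 and Slc43a1). Slc3a2, the heavy chain shared by several amino acid exchangers, measured 130, 111 and 118 CPM in control retinae against 163, 152 and 146 CPM in CKO retinae (log2 fold change 0.36 ± 0.13, edgeR adjusted p = 0.582). Slc43a1 measured 11.0, 13.7 and 10.7 CPM in control retinae against 14.4, 16.5 and 18.2 CPM in CKO retinae (0.47 ± 0.18, adjusted p = 0.629). In these genes and in Slc7a8 the CKO libraries all lay above the controls, as did 5.74% of all genes tested, and the 3 were singled out after their values were seen. Slc7a5, a light chain that pairs with Slc3a2, measured 169, 206 and 172 CPM in control retinae against 277, 234 and 197 CPM in CKO retinae, which overlapped. Slc25a44, the mitochondrial carrier of these amino acids, had a log2 fold change of 0.07 ± 0.15. Over all 6 lists, 0 of 51 genes were called by edgeR, DESeq2 or limma-voom. In edgeR, 3 had an unadjusted p under 0.05 (Slc3a2, Slc43a1 and Pdk1). Over all 14609 genes, these tests called 131, 324 and 120. In edgeR that is 0.897% of genes, so 0 calls among 51 is near that share, and nothing is read from it. The share of all genes with an unadjusted p under 0.05 is not given here.

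**Figure D3:**
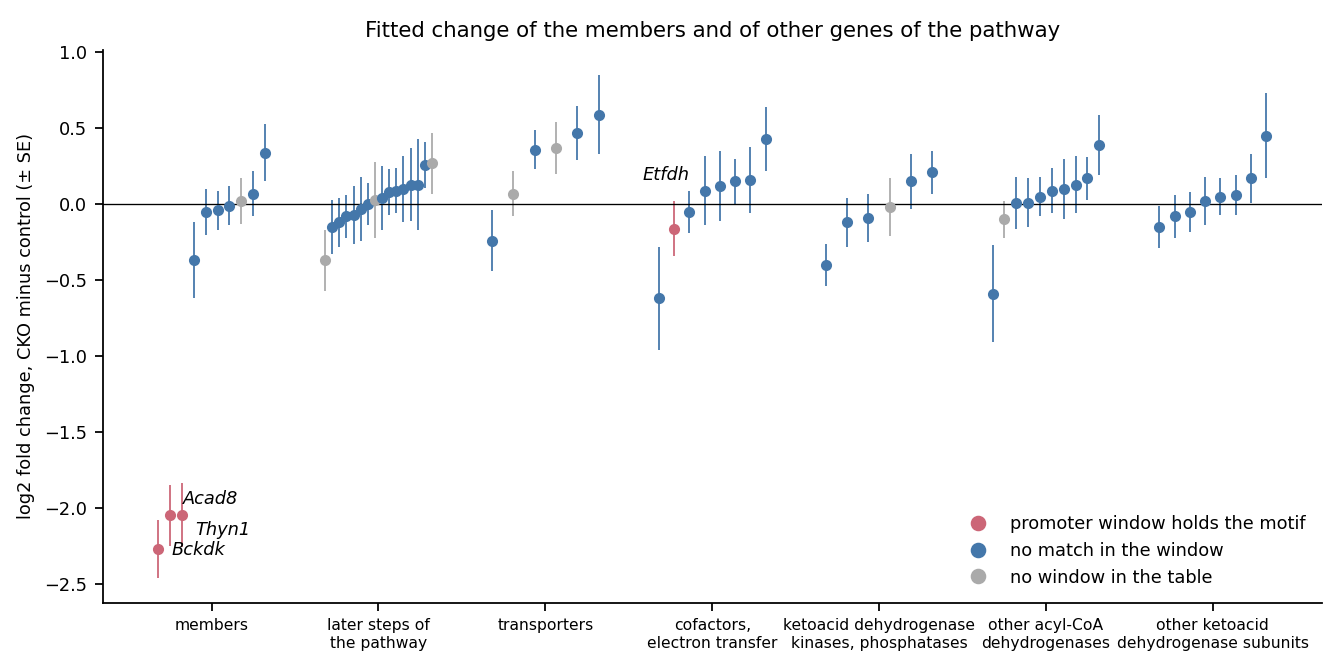
Log2 fold change with SE (vertical axis, CKO minus control) of the 10 genes and of the tested genes of 6 lists (horizontal axis), coloured by whether a promoter window holds the motif. Bckdk, Acad8 and Thyn1 lie between -2.27 and -2.05, whereas the 51 other genes lie between -0.62 and 0.59, Etfdh at -0.16 among them; Dld, Ppm1k and Acadsb are drawn in 2 lists each.

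The genes next to those 3 were taken from the RefSeq order on GRCm38.p6. On either side of Bckdk lie Vkorc1, the target of warfarin, and Kat8, a histone acetyltransferase gene. Kat8 stood at 35.5 ± 8.11 and 32.6 ± 0.90 CPM, a log2 fold change of -0.12 ± 0.18. Vkorc1 measured 12.1, 10.5 and 8.11 CPM in control retinae against 6.68, 6.65 and 8.30 CPM in CKO retinae, overlapping in 1 library of each group, with -0.51 ± 0.21 (edgeR adjusted p = 0.713). Further out, Zfp646 had -0.24 ± 0.23, Prss53 -0.72 ± 0.59 and Prss36 0.02 ± 0.27, and Prss8 had at most 4 reads in a library. Next to the Acad8 and Thyn1 pair, Vps26b had 0.00 ± 0.12, Ncapd3 0.16 ± 0.20, Jam3 -0.24 ± 0.15 and Glb1l2 -0.03 ± 0.14, and Gm1110 and Glb1l3 had at most 2 reads in a library.

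**Figure D4:**
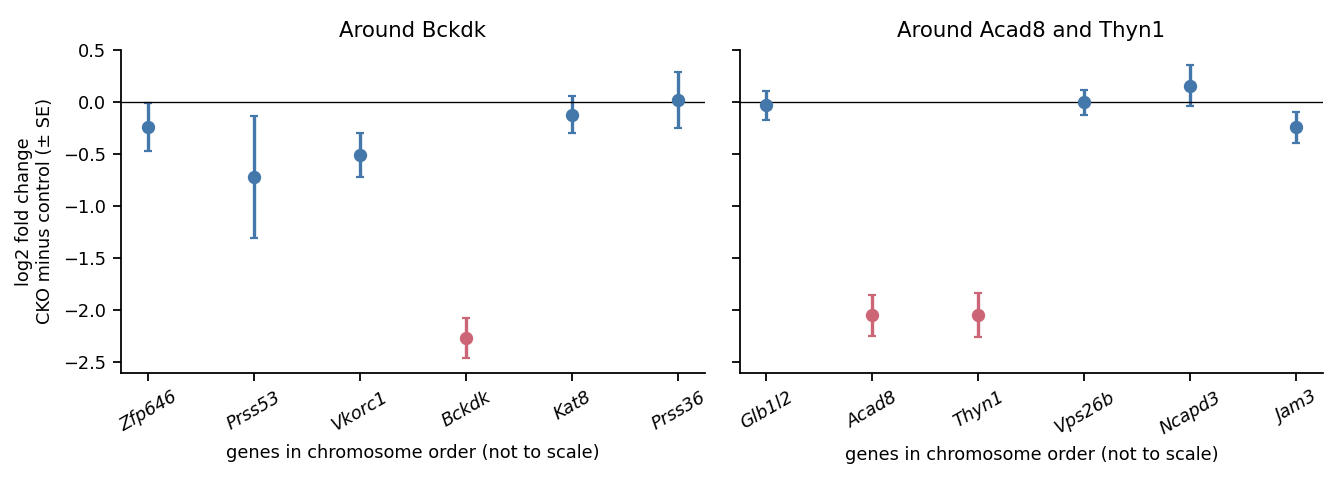
Log2 fold change with SE (vertical axis, CKO minus control) of the tested genes around Bckdk (left) and around Acad8 and Thyn1 (right), in chromosome order. The 3 red points, between -2.27 and -2.05, are set between neighbours that lie between -0.72 and 0.16.

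The genes whose log2 CPM followed Bckdk most closely over the 6 libraries were Tor2a (Pearson r = 0.998), Zfp239 (0.997) and Zfp862 (0.997), searched among 12715 genes whose mean log2 CPM reached 1. Those closest to Acad8 were Syt3 (0.997), Ccdc101 (0.997) and Dnajc18 (0.995). The 6 points share the step between genotypes, and the values are a description. Log2 fold changes were -1.39 ± 0.17 for Tor2a, -2.35 ± 0.22 for Zfp239, -1.52 ± 0.14 for Zfp862, -1.42 ± 0.25 for Syt3, -0.91 ± 0.15 for Ccdc101 and -2.27 ± 0.19 for Dnajc18. Bckdk correlated with Thyn1 at 0.991 and with Acad8 at 0.974. Thyn1 ranked only at place 133 for Acad8 (r = 0.947), below Bckdk at place 49.

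Seen over the table, the motif was more frequent in windows of genes called lower. Leaving out Bckdk, Acad8 and Thyn1, 37 of 80 such genes with a window (46.2%) held a match, against 3 of 19 called higher (15.8%) and 228 of 10602 tested genes that were not called (2.15%). Read from the motif, 40 of 271 tested genes with a match were called lower (14.8%), Bckdk, Acad8 and Thyn1 among them, and Etfdh was 1 of the 228 that were not called. These shares are a description, and a match is not evidence of binding.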

How the data were processed

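Polyadenylated RNA of 3 control and 3 CKO retinal samples was sequenced. The authors deposited whole-number read counts per gene symbol, not normalized. The genome build mm9 and the tools HTSeq 0.5.4p3, BWA 0.7.6a-r433 and DESeq 2.13 are listed in the submitters' processing notes, without their roles; for annotation and strand the setting is not given in the sources used. Columns were assigned by matching names to titles. From the table, 3 merge-conflict lines and 1 blank line were skipped and 1 repeated identical row was kept once. Counting by symbol can divide or drop reads of near-identical copies and of overlapping genes.

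Counts were filtered with filterByExpr (minimum count 10), scaled by TMM and compared by genotype with the quasi-likelihood F test of edgeR 4.0.16 (R 4.3.3), with Benjamini-Hochberg adjustment over 14609 genes at 0.05. Each log2 fold change compares CKO with control (negative means lower in CKO); its SE is the absolute value divided by the square root of F. Log2 CPM used a prior count of 2. The steps were tested on simulated data. No replicate pair agreed within sampling noise (lowest chi-square per degree of freedom 5.98). Alternatives included DESeq2 1.42.0 and limma 3.58.1 (voom).

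The 10 genes, the gene lists and the motif were chosen with earlier results of these data known. Named genes were the 10, the 2 largest called changes and the gene of highest CPM (not per length) in each pathway list, the nearest neighbours, the 3 closest patterns for Bckdk and Acad8, and Thap11; genes named outside this rule (Etfdh, Slc3a2, Slc43a1, Slc7a8, Slc25a44, Acadvl, Ppm1k and genes at the ends of a range) were named for a role or after their values were seen. Further marker lists (ganglion cell, pigment epithelium, periocular mesenchyme and erythroid) were used as checks only. Some list genes are not reported by name here. Promoter windows were matched by symbol, for 10704 of the genes tested.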

Additional observations from a re-analysis of the deposited data

How the results depend on the processing

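Each of the 10 log2 fold changes was recomputed under 13 other settings. All 130 values stayed within 1 SD of the replicates from the reported value. In groups of 3, leaving out 1 library can hardly move a value by more than that SD. The count therefore says little about stability in those settings. Bcat2 counted as within the SD although it went from -0.37 to -0.03 without control replicate 2. The sign of Bckdk, Acad8 and Thyn1 was negative in every setting. Bcat1, Ivd and Mccc1, near 0, changed sign with library sizes alone (0.07, 0.04 and 0.03) and without control replicate 2 (0.07, 0.05 and 0.08). Bcat1 also turned with DESeq2 and its size factors (0.01 in both) and without CKO replicate 3 (0.01). Dbt turned without control replicate 2 (-0.02), control replicate 3 (-0.01) or CKO replicate 1 (-0.04). Calls over all genes went from 131 to 324 with DESeq2's Wald test and to 39 at an adjusted p under 0.01, and ranged from 16 (without CKO replicate 3) to 219 (without control replicate 2) with 1 library left out. Calls among the 10 ranged from 1 (Bckdk, without CKO replicate 3) to 3, and without control replicate 3 there were 2 (Bckdk and Acad8). Calls among 51 other pathway genes ranged from 0 to 1 (Acadvl, without control replicate 2). With the replicate number as a block, 153 genes were called, 3 of the 10 and 0 of the others; same-numbered libraries deviated together with r = 0.336, 0.107 and -0.008, so the numbers were not taken as a pairing. With 3 libraries per group, small differences in the pathway genes could go undetected. The share of decreases among calls and the median of all genes moved little between the scalings (median -0.03, -0.01 and 0.05).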

Other observations

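Markers of other tissues were given for the libraries as a whole, and the remaining lists are added here as values. The 10 ganglion cell and early neuron markers summed to between 3378 and 3907 CPM in the controls and between 3608 and 3698 CPM in the CKO. The 10 pigment epithelium markers summed to 81.2, 46.1 and 39.1 CPM in control replicates 1 to 3 and to 40.2, 36.8 and 34.7 CPM in CKO replicates 1 to 3. All 6 tested pigment markers were negative (median log2 fold change -0.60). For 2 of them, Dct (-0.66 ± 0.22) and Trpm1 (-0.63 ± 0.27), all CKO libraries lay below all controls, as did 6.91% of all genes tested. The 11 periocular mesenchyme markers summed to 77.1, 191 and 82.9 CPM in the controls and to 76.4, 58.7 and 79.3 CPM in the CKO, with control replicate 2 the highest. Of 7 tested mesenchyme markers, 3 were negative and 4 positive, and Col1a2 (-1.08 ± 0.32) was lower without overlap. The 9 erythroid markers summed to between 6.40 and 16.02 CPM in the controls and between 4.07 and 13.0 CPM in the CKO, with Hba-a2, Hbb-b1 and Hbb-b2 at 0 reads in all libraries. Of 3 tested erythroid markers, 2 were negative and 1 positive, and Alas2 (-0.88 ± 0.26) was lower without overlap. The part of these tissues in the levels of the pathway genes was not tested.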
